A study of Mus musculus with 4 samples.

Results

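Genes of the loop of Henle and the distal tubule were followed in kidneys taken whole from mice at E18.5, late in gestation, in a comparison of mutants in which the nuclear receptor gene Hnf4a can be deleted in nephron progenitors with controls that keep 1 allele. The set was given as 28 gene symbols named for their known place in these segments, and the rule that picks their rows uses names alone. Of these, 27 had a row of their own in at least 1 deposited table and 25 in all 4 tables, out of 22761 names found in all 4. Klk1 and Tmem52b lacked such a row in control replicate 1, and Pou3f3 was listed in every table under a name shared with 2900092D14Rik.

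The mutant group held 2 libraries from embryos of genotype Hnf4a c/c ; Six2GFPcre, in which both Hnf4a alleles can be deleted. The control group held 2 libraries of genotype Hnf4a c/+ ; Six2GFPcre, in which 1 allele can be deleted, so these kidneys are not intact. All 4 libraries carried Six2GFPcre, a Cre recombinase made in nephron progenitors, and the strain is labelled as mixed. The labels do not name the embryos or say whether kidneys were pooled, so p-values measure only the spread between these libraries.

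The loop of Henle is the hairpin of the nephron that takes up salt without water in its thick ascending limb and so lets the kidney concentrate urine. The distal convoluted tubule that follows adjusts sodium, potassium, calcium and magnesium under hormonal control. Both segments, like the proximal tubule, descend from the Six2-positive progenitors in which the Cre is active, whereas the collecting duct comes from the ureteric bud. Hnf4a itself is known in the kidney as a regulator of the proximal tubule.

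Each library gave between 13552 and 13646 named genes at 1 FPKM or more, where FPKM is a count of fragments scaled to transcript length and library size. The tables hold no read totals, so sequencing depth cannot be given. In each group the first replicate had almost no Xist, at 0.131 FPKM in the mutant and 0.0789 in the control library. Replicate 2 had 74.0 and 81.0 FPKM. Ddx3y, a gene of the Y chromosome, was at 26.4 and 27.7 FPKM in replicate 1 of the mutant and control groups. In replicate 2 it was at 0.0265 and 0.0301 FPKM. Each group thus held 1 library of male pattern (replicate 1) and 1 of female pattern (replicate 2). Replicate number and sex cannot be told apart here. Hnf4a was at 87.1 and 78.5 FPKM in the mutant libraries and at 89.3 and 84.6 in the control libraries, a value over the whole gene that does not check the deletion. Summed marker levels of other cell types were 409 and 391 FPKM in the mutant and 446 and 396 in the control libraries for the collecting duct (Aqp2 the most abundant marker), 232 and 216 against 226 and 230 for podocytes (Podxl), and 260 and 256 against 278 and 263 for endothelium (Plvap). They were 111 and 102 against 119 and 87.0 for nephron progenitors (Six2), 292 and 251 against 351 and 290 for stroma (Col3a1), and 61.7 and 73.0 against 65.3 and 63.0 for macrophages (C1qa).

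The defining genes of both segments were present in every library at levels that overlapped between the groups. Slc12a1, the sodium-potassium-chloride cotransporter of the thick ascending limb and the target of loop diuretics, was at 70.8 and 76.2 FPKM in the mutant libraries and at 86.4 and 70.0 in the control libraries. Umod, which encodes uromodulin, the most abundant protein of normal urine, was at 41.0 and 47.7 FPKM in the mutant libraries and at 46.8 and 44.1 in the control libraries. Slc12a3, the thiazide-sensitive sodium-chloride cotransporter of the distal convoluted tubule, was at 19.8 and 25.4 FPKM in the mutant libraries and at 23.6 and 29.9 in the control libraries. In all 3 genes the libraries of a group differed from each other by as much as the groups did. In a whole kidney, a change in the number of cells of a segment and a change in RNA per cell cannot be told apart.

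The promoters of these genes are shown because the comparison concerns a DNA-binding factor. Each line holds the 250 bases before the start of the gene, 5′ to 3′ on the gene's strand, from RefSeq in build GRCm38.p6, which is not the build of the expression tables. Capitals mark CAAAGTC, the core of the sequence that Hnf4 proteins bind, or TATAAA, the TATA box, on either strand. The last line gives Slc3a1, an amino acid transporter subunit of the proximal tubule, chosen because it was the single proximal tubule marker with CAAAGTC in this window.
Slc12a1, chr2:125152350-125152599, plus strand: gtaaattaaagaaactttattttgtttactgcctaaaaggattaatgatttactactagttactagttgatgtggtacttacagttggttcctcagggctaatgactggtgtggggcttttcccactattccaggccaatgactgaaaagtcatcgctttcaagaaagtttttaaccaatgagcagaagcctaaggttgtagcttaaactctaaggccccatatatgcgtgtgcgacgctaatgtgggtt
Umod, chr7:119479263-119479512, minus strand: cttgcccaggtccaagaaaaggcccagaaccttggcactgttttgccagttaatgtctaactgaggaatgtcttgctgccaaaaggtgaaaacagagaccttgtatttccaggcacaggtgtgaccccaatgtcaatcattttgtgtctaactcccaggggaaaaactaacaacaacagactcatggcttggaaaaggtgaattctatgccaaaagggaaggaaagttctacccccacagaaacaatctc
Slc12a3, chr8:94328958-94329207, plus strand: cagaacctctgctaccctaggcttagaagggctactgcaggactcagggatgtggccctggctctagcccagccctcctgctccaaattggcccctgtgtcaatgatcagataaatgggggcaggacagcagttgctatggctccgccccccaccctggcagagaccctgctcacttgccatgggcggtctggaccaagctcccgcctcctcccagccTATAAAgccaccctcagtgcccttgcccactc
Slc3a1, chr17:85028097-85028346, plus strand: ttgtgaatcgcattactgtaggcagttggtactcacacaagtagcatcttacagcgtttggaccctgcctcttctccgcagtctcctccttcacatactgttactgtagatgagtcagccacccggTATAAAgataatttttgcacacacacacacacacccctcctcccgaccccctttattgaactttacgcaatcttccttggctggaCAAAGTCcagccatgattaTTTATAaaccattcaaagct
Promoters of 23 of the 28 loop and distal genes were matched by symbol, with 29 sequences in all. None of the 29 held CAAAGTC, which 3.84% of all 32851 mouse promoters in the table hold, and 1 of 11 promoters of proximal tubule markers did. TATAAA was in 2 of the 29, those of Slc12a3, where it begins 32 bases before the start, and Kcnj16, against 12.4% of all promoters. A match or its absence in these windows describes the letters and not the binding of a factor.

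**Figure D1:**
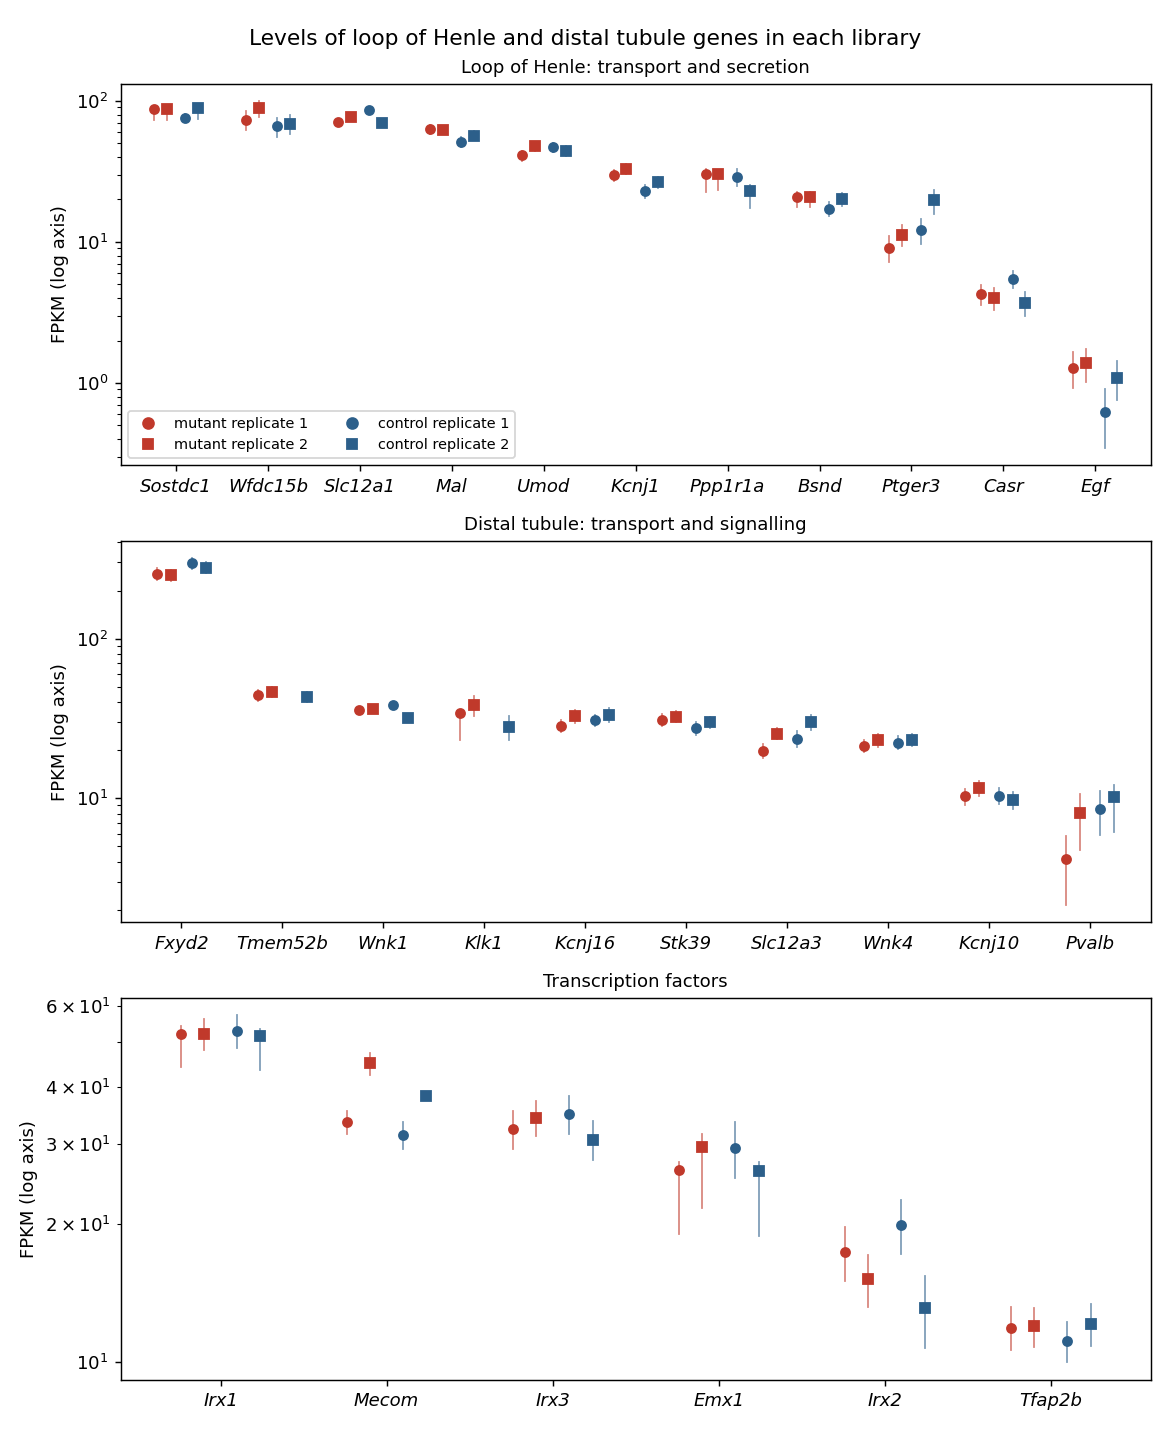
FPKM on a log axis of the loop and distal genes with a row of their own, in 3 panels by role, with mutant libraries in red and control libraries in blue, circles for replicate 1, squares for replicate 2 and vertical lines for the authors' intervals. Levels run from about 1 FPKM for Egf to between 249.7 and 296 FPKM for Fxyd2, and the colours intermix for most genes.

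None of the 25 genes that could be tested passed an adjusted p of 0.05 in limma with Benjamini-Hochberg adjustment over all 13287 tested genes, of which 0.158% passed (0.113% lower and 0.0452% higher). At an unadjusted p under 0.05, 1 of the 25 was higher in the mutant libraries and 0 were lower, against a background of 2.67% and 4.57% (7.24% in either direction). The median log2 change of the 25 genes was 0.02 on the log2(FPKM + 1) scale, as it was over all tested genes. Of the 25, 16 had positive and 9 negative changes, between -0.59 and 0.34. The positive share was 64%, against 55.3% of all tested genes. Changes within 0.5 of no change were found for 23, which is 92%, against 91.8% of all tested genes. The 95% interval of the change lay between -1 and 1 on this scale for 23 of the 25, which is 92%, against 86% of all tested genes. For low genes such as Egf the scale understates the fold change, so these bounds do not mark a fixed difference in FPKM. The exceptions were Ptger3 and Pvalb, whose intervals reached below -1.

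Among genes for salt transport in the loop, Kcnj1 was the member with an unadjusted p under 0.05. Kcnj1, the apical potassium channel that returns potassium to the lumen so that Slc12a1 can keep working, was at 29.6 and 33.0 FPKM in the mutant libraries and at 22.9 and 26.4 in the control libraries. Each mutant library was above each control library. The means were 31.3 ± 2.40 FPKM in mutant and 24.7 ± 2.51 in control libraries (each n = 2, with SDs, as for every mean given). The log2 change was 0.33 (SE 0.11, 95% interval 0.02 to 0.64, limma adjusted p = 0.65). With 1 library left out the log2 change stayed between 0.23 and 0.43. The unadjusted p of 0.040 became 0.11 when control replicate 1 was dropped, 0.026 for control replicate 2, 0.079 for mutant replicate 1 and 0.22 for mutant replicate 2, and was 0.022 in a fit blocked on the replicate number. In these fits the arm with 1 library takes its spread from the other group. The locus of Kcnj1 in mm9 is on chromosome 9 from 32180003 to 32206779, with a later end in control replicate 1. Within replicate 1 the change was 0.36 and within replicate 2 it was 0.31. Slc12a1 itself had a log2 change of -0.08 (95% interval -0.41 to 0.25).

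Bsnd encodes barttin, the accessory subunit of the basolateral chloride channels, and was at 20.9 and 20.9 FPKM in the mutant libraries and at 17.2 and 20.0 in the control libraries. The groups did not overlap, but the gap between mutant libraries and control replicate 2 was small beside the gap between the control libraries, and the log2 change was 0.16 (95% interval -0.14 to 0.46), or 0.059 to 0.26 with 1 library left out. Casr, the calcium-sensing receptor that restrains salt uptake in the limb, was low, at 4.27 and 4.00 FPKM in the mutant libraries and at 5.45 and 3.70 in the control libraries. Its control values enclosed both mutant values. Ptger3, the prostaglandin receptor EP3, which damps hormone-driven salt uptake, was at 9.11 and 11.2 FPKM in the mutant libraries and at 12.1 and 19.7 in the control libraries. Both mutant values lay below both control values, with control replicate 2 well above the other libraries. The log2 change was -0.57 (SE 0.26, 95% interval -1.27 to 0.14, adjusted p = 0.76). It was -0.24 when control replicate 2 was dropped and -0.90 when control replicate 1 was dropped.

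Among secreted and membrane products of the loop, Umod had a log2 change of -0.04 (95% interval -0.31 to 0.24), and its locus in the deposited mm9 tables is on chromosome 7 from 126606222 to 126622776, with a later end in mutant replicate 1. Egf, whose precursor is made by the thick limb and distal tubule after birth, was near the floor of the tables, at 1.29 and 1.38 FPKM in the mutant libraries and at 0.626 and 1.09 in the control libraries. It was higher in both mutant libraries, at 156% of the control mean, with a log2 change of 0.34 (95% interval -0.21 to 0.90, adjusted p = 0.76) that was 0.63 with a pseudocount of 0.1 and 0.16 without control replicate 1. The authors' intervals for control replicate 2 (0.757 to 1.43) and both mutant libraries (0.916 to 1.66 and 1.02 to 1.74) overlapped. Its locus overlaps 6330410L21Rik in every table, and without strand information in the sources the reads of overlapping genes cannot be told apart.

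Mal, a proteolipid of apical membrane sorting, was at 62.7 and 62.2 FPKM in the mutant libraries and at 51.2 and 56.8 in the control libraries, a log2 change of 0.21 (SE 0.08, 95% interval -0.01 to 0.43, adjusted p = 0.71). Ppp1r1a, an inhibitor of protein phosphatase 1, was at 30.2 and 30.5 FPKM in the mutant libraries and at 28.8 and 23.1 in the control libraries. Wfdc15b, a small secreted protein with a whey acidic protein domain, was at 72.9 and 88.3 FPKM in the mutant libraries and at 65.9 and 68.7 in the control libraries. In these 3 genes both mutant values were above both control values. Sostdc1, an antagonist of bone morphogenetic proteins, did not share this, with 87.7 and 87.8 FPKM in the mutant libraries and 75.7 and 88.7 in the control libraries on either side. Its values in both mutant libraries and in control replicate 2 lay above the upper bounds of their own intervals.

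Of the 11 loop genes for transport and secretion, 6 had both mutant values above both control values (Kcnj1, Bsnd, Egf, Mal, Ppp1r1a and Wfdc15b) and 1, Ptger3, had both below. Over all 25 genes the counts were 7 above and 3 below, against 22.7% and 17.1% of all tested genes (39.8% in either direction). The median log2 change of the 11 was 0.16. The grouping by role was made with earlier results of these data known, and no test was made of it.

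**Figure D2:**
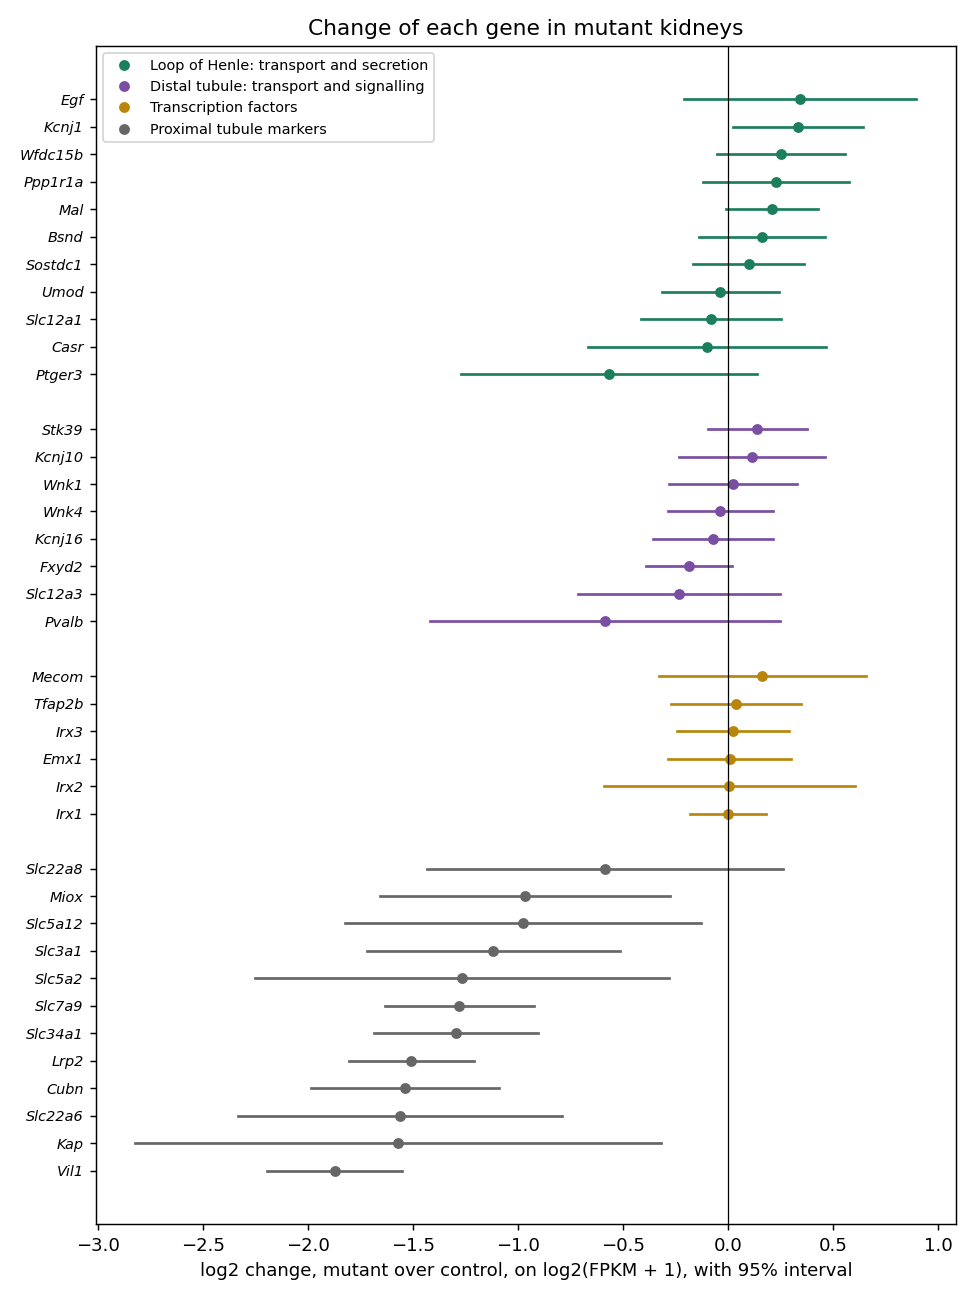
Log2 change of each tested gene, mutant over control, on the log2(FPKM + 1) scale, as points with 95% intervals, by role, with the proximal tubule markers at the bottom. The intervals of 24 of the 25 loop and distal genes include 0, Kcnj1 being the exception, whereas those of 11 of the 12 proximal tubule markers lie below 0.

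The genes of the distal convoluted tubule and its signalling chain had log2 changes between -0.59 and 0.14, with a median of -0.06 over the 8 that were tested. Slc12a3, on chromosome 8 from 96853108 to 96890121 in mm9 (with a later end in control replicate 2), had a log2 change of -0.23 (SE 0.18, 95% interval -0.72 to 0.25, adjusted p = 0.77). With 1 library left out it was -0.071 and -0.063 (control replicate 2, mutant replicate 1) or -0.40 and -0.41 (control replicate 1, mutant replicate 2). Wnk1, a kinase upstream of the cotransporter, was at 35.5 and 36.0 FPKM in the mutant libraries and at 38.5 and 32.0 in the control libraries. Wnk4, a related kinase, was at 21.3 and 23.0 FPKM in the mutant libraries and at 22.3 and 23.3 in the control libraries. Stk39, the kinase between the Wnk proteins and the cotransporter, was at 30.8 and 32.4 FPKM in the mutant libraries and at 27.5 and 29.8 in the control libraries. For Wnk1 and Wnk4 the groups overlapped, and Stk39 was above control in both mutant libraries with a log2 change of 0.14 (95% interval -0.10 to 0.37). The Wnk1 value does not separate the short kidney form of the gene, and its locus overlaps Mir706.

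Kcnj10 and Kcnj16 form the basolateral potassium channel of the distal tubule. Kcnj10 was at 10.3 and 11.6 FPKM in the mutant libraries and at 10.4 and 9.70 in the control libraries. Kcnj16 was at 28.3 and 32.5 FPKM in the mutant libraries and at 30.7 and 33.3 in the control libraries. The groups overlapped for each of the pair, and per length Kcnj16 was the higher in every library, by 2.75 and 2.79 times in mutant and 2.96 and 3.43 times in control libraries.

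Fxyd2, the gamma subunit of the sodium pump, was the most abundant of the set, in the top 0.361% of tested genes. It was at 255 and 249.7 FPKM in the mutant libraries and at 296 and 278 in the control libraries, so both mutant values were below both control values. The log2 change was -0.19 (SE 0.08, 95% interval -0.39 to 0.02, adjusted p = 0.73). Fxyd2 is also made in the proximal tubule, whose 12 markers were lower in the same libraries and summed to 37.9% of control. The share of that segment in the Fxyd2 value was not tested.

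Pvalb, a calcium buffer of the early distal convoluted tubule and of fast muscle, was at 4.18 and 8.08 FPKM in the mutant libraries and at 8.52 and 10.1 in the control libraries. Mutant replicate 1 stood apart, and the log2 change of -0.59 (SE 0.31, 95% interval -1.42 to 0.25, adjusted p = 0.76) was -0.18 without it and -0.99 without mutant replicate 2. Skeletal muscle markers, led by Tnnt3, summed to 6.24 and 5.42 FPKM in the mutant and 9.22 and 6.44 in the control libraries, and their part in the Pvalb value was not tested. Of the 5 muscle markers, Myog was listed at 0 in 3 of the libraries.

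Klk1, the tissue kallikrein of the connecting tubule, was at 34.0 and 38.3 FPKM in the mutant libraries and at 27.9 in control replicate 2. In control replicate 1 it shared a row with Klk1b24 and Klk1b5, near-identical relatives, at 38.6 FPKM for the 3 genes, so no test was made. In mutant replicate 1 the Klk1 value lay above the upper bound of its own interval (23.2 to 33.7). Tmem52b, a membrane protein of the distal nephron, was at 44.0 and 46.2 FPKM in the mutant libraries and at 43.1 in control replicate 2, and control replicate 1 listed it together with Gabarapl1 at 122 FPKM. Neither gene can be compared with control replicate 1 from these tables.

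The 6 tested transcription factors of these segments had log2 changes between 0.0005 and 0.16, and in none did the groups separate. Irx1, an Iroquois homeobox gene of the intermediate and distal tubule, was at 52.3 and 52.2 FPKM in the mutant libraries and at 52.9 and 51.5 in the control libraries, a log2 change of 0.0005 (95% interval -0.18 to 0.18). Irx3, of the same family, was at 32.3 and 34.2 FPKM in the mutant libraries and at 34.9 and 30.6 in the control libraries. Irx2 was at 17.4 and 15.2 FPKM in the mutant libraries and at 19.9 and 13.1 in the control libraries. For all 3 Iroquois genes the control values enclosed the mutant values, and Irx2 differed between control libraries more than between the groups.

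Pou3f3, the POU factor that mouse embryos need to form the loop of Henle, was quantified together with 2900092D14Rik. The joint row was at 47.5 and 50.2 FPKM in the mutant libraries and at 57.2 and 47.4 in the control libraries, a log2 change of -0.09 (95% interval -0.40 to 0.22). Tfap2b, an AP-2 factor needed for the distal convoluted tubule, was at 11.9 and 12.0 FPKM in the mutant libraries and at 11.1 and 12.1 in the control libraries. Emx1, a homeobox gene of the distal tubule, was at 26.2 and 29.5 FPKM in the mutant libraries and at 29.4 and 26.1 in the control libraries. The groups overlapped for all 3 of these factors.

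Mecom, a zinc finger factor of the distal nephron and collecting duct, was at 33.5 and 45.0 FPKM in the mutant libraries and at 31.3 and 38.2 in the control libraries. Replicate 2 was the higher in each group. In control replicate 2 the value is the sum of 2 rows, of 33.3 and 4.93 FPKM, and with the higher row alone the log2 change was 0.26 in place of 0.16.

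The spread between libraries of a group was wider than the authors' intervals for some genes. Among the 24 genes with a single row in each table, the intervals of the 2 control libraries did not overlap for 6 (Slc12a1, Ptger3, Casr, Slc12a3, Wnk1 and Irx2), against 19.3% of all genes compared. The mutant libraries' intervals did not overlap for 1, Slc12a3, against 10.8%. For none of the 24 did both mutant intervals lie above both control intervals, against 0.498%, and for none did both lie below, against 2.36%. Across all 4 libraries, the highest value was under 1.5 times the lowest for 20 of the 25 tested genes. The 5 others were Slc12a3, Irx2, Ptger3, Pvalb and Egf. The share of all tested genes under this limit was not computed, so the count only describes the set.

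The other genes of these segments were taken from a list of 50 transporters, regulators and patterning genes, of which 46 could be tested. None passed an adjusted p of 0.05 in limma, and at an unadjusted p under 0.05, 1 was higher and 2 were lower, against 2.67% and 4.57% of all tested genes. Their median log2 change was -0.04. Of 15 tested loop genes, the 4 most abundant included the sodium pump subunit gene Atp1b1 (171 ± 1.30 FPKM in mutant and 175 ± 3.89 in control libraries) and the tight junction gene Cldn10 (60.6 ± 0.208 FPKM in mutant and 66.2 ± 4.05 in control libraries). Both had mutant values below both control values, with log2 changes of -0.03 and -0.12. Of the 46 tested genes, 15 had both mutant values below both control values, against 17.1% of all tested genes. For 8 both were above, against 22.7%. The share of other segments in these values was not tested.

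Of 18 tested distal and connecting tubule genes, the most abundant were the calcium-binding genes S100g (185 ± 13.2 FPKM in mutant and 184 ± 11.9 in control libraries) and Calb1, the tight junction gene Cldn8 (77.9 ± 15.8 and 64.0 ± 14.4) and the ubiquitin ligase subunit Cul3. Calb1 was at 117 and 67.1 FPKM in the mutant libraries and at 48.9 and 59.5 in the control libraries, so the size of the difference rests on mutant replicate 1. Cul3 was at 46.3 and 49.2 FPKM in the mutant libraries and at 91.0 and 48.6 in the control libraries, with control replicate 1 apart.

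Of 13 tested patterning genes, the most abundant were Pax8 (60.8 ± 2.15 FPKM in mutant and 60.6 ± 2.06 in control libraries), Pax2 (46.2 ± 0.699 and 52.4 ± 9.62), Emx2 (43.3 ± 0.354 and 44.7 ± 1.51) and the Notch ligand gene Jag1 (33.8 ± 1.69 and 32.9 ± 4.98). Among all 46 tested genes of the list, the 3 with an unadjusted p under 0.05 in limma were named after their values were seen. Cldn16, from the loop genes of the list, is the tight junction gene of calcium and magnesium uptake in the limb. It was at 21.8 and 20.0 FPKM in the mutant and 14.9 and 16.6 in the control libraries (log2 change 0.39, limma adjusted p = 0.52). However, the interval of mutant replicate 2 ran from 12.7 to 2242. Sim2, a developmental transcription factor, was at 13.5 and 14.5 FPKM in the mutant and 23.7 and 19.9 in the control libraries (log2 change -0.60, limma adjusted p = 0.33). Papss2, an enzyme of sulfate donor synthesis, was at 15.0 and 18.7 FPKM in the mutant and 24.2 and 22.8 in the control libraries (adjusted p = 0.55).

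**Figure D3:**
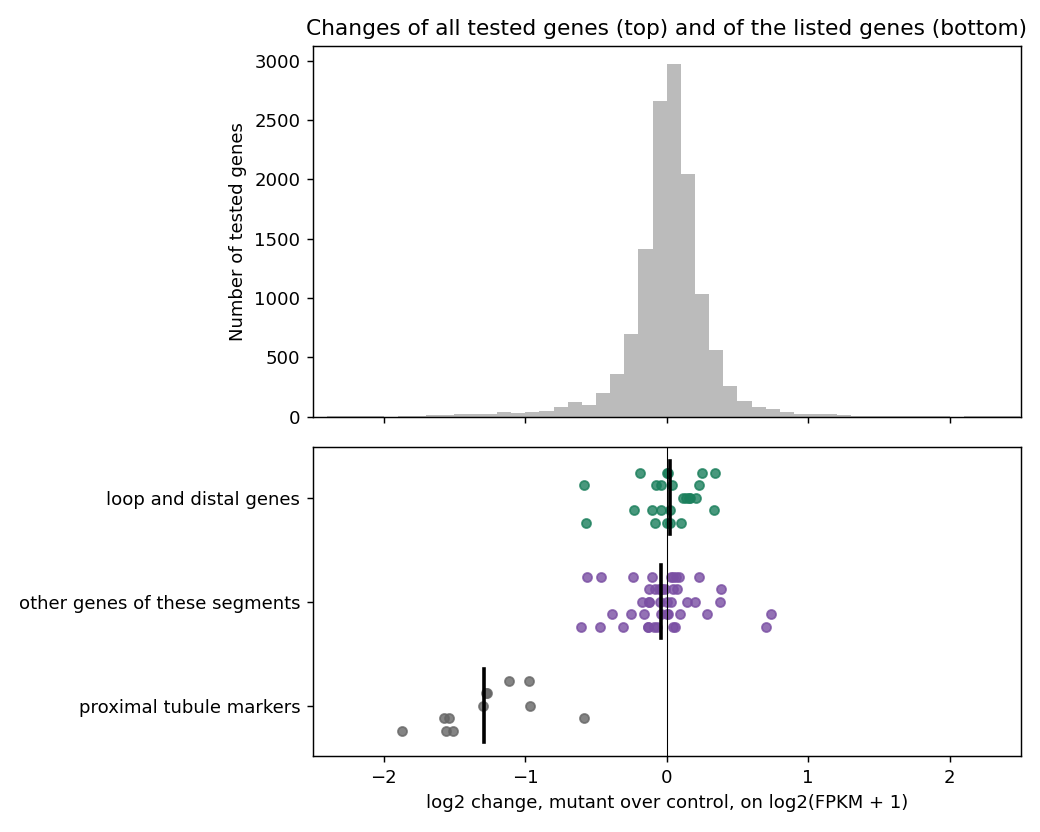
Log2 changes, mutant over control, on the log2(FPKM + 1) scale: above, the number of all tested genes in bins of 0.1, and below, each loop and distal gene, each other gene of these segments and each proximal tubule marker as a point, with black bars at the medians. The medians are 0.02, -0.04 and -1.29.

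Markers of the proximal tubule, which shares its progenitors with the loop and distal tubule, are the closest set for comparison. All 12 were lower in both mutant libraries than in both control libraries, with a median log2 change of -1.29, and 11 had an unadjusted p under 0.05. Over all genes 1 of the 12 passed in limma, Vil1, a microvillar actin-bundling gene (6.49 ± 0.627 FPKM in mutant and 26.4 ± 0.742 in control libraries, adjusted p = 0.036), with a log2 change of -1.87. With 1 library left out that change was -1.79 to -1.96, with the other group alone giving the spread of the arm of 1 library, and the adjusted p was 0.113 to 0.196. Vil1 also missed the threshold, at about the same change, in a fit blocked on the replicate number (0.115), without the filter on low values (0.145), with quantile normalization (0.0509) and with an untrended variance (0.0574). The 3 most abundant were the phosphate transporter gene Slc34a1 (42.5 ± 3.96 and 106 ± 17.8), Kap, an androgen-regulated gene (19.8 and 18.2 in mutant and 94.2 and 36.0 in control libraries), and Miox, an inositol oxidase (21.4 ± 0.727 and 44.2 ± 15.8). The 12 markers summed to 166 and 173 FPKM in the mutant and 523 and 371 in the control libraries, 37.9% of control. The 25 loop and distal genes summed to 1009 and 1070 FPKM in the mutant and 1050.5 and 1041 in the control libraries, 99.4% of control. By role, the sums were 107% of control for loop transport and secretion, 91.1% for distal tubule transport and signalling and 103% for transcription factors. Fxyd2, which is also made in the proximal tubule, was the most abundant of the 25. The sums of the 2 sets are given side by side without a test of their difference.

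**Figure D4:**
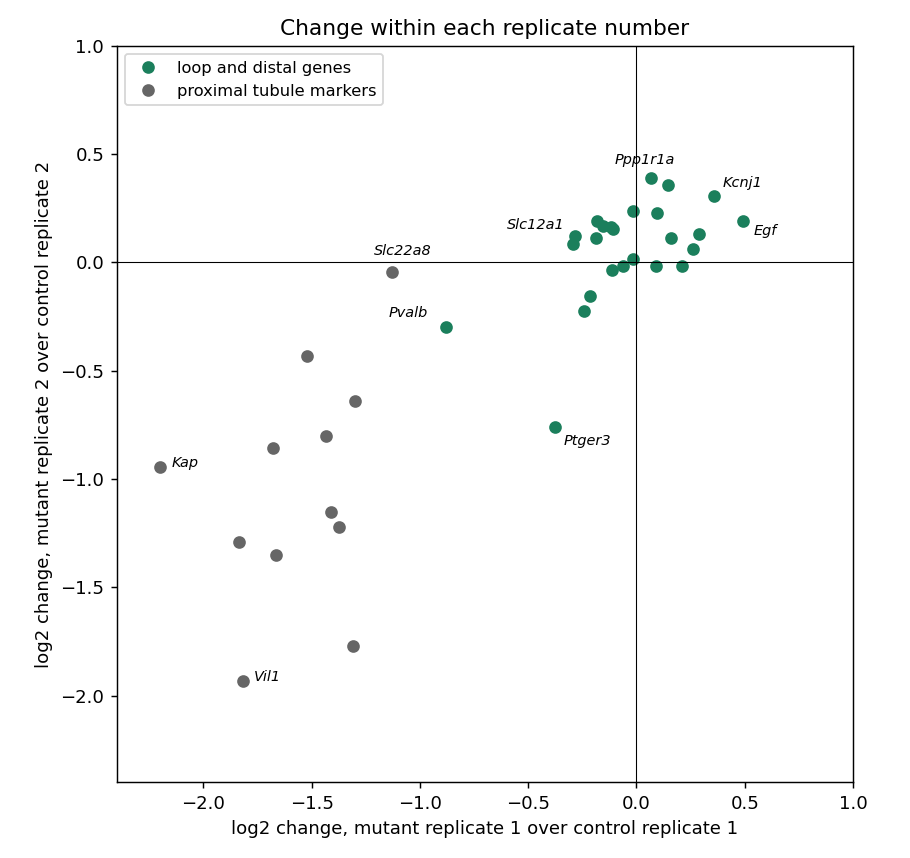
Log2 change of replicate 1 (horizontal) and replicate 2 (vertical), each mutant library over the control library of the same number, on the log2(FPKM + 1) scale, for loop and distal genes in green and proximal tubule markers in grey. The proximal markers lie below 0 on both axes, and the loop and distal genes surround the origin except for Ptger3 and Pvalb.

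The sign of the change was the same within replicate 1 and within replicate 2 for 14 of the 25 loop and distal genes, which is 56%, against 57.4% of all tested genes. For the proximal tubule markers it was the same for all 12. That follows from both mutant values lying below both control values, and adds nothing to it.

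Ratios between genes within a library do not depend on the scaling of that library. Umod over Lrp2, the gene of the proximal uptake receptor megalin, was 2.80 and 2.81 in the mutant libraries and 0.965 and 0.980 in the control libraries. Slc12a1 over Slc34a1 was 1.57 and 1.92 in the mutant libraries and 0.726 and 0.747 in the control libraries. The mutant means were 2.81 ± 0.00306 and 1.74 ± 0.252, and the control means 0.973 ± 0.0111 and 0.737 ± 0.0145 (SD, n = 2 each), so both differences exceeded the spread between replicates. The exact two-sided permutation test gave p = 0.333 for each, the smallest value that 2 against 2 libraries allow. The pairs of genes were chosen with the levels known.

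Of 3 ratios among loop and distal genes, 2 overlapped between the groups. Umod over Slc12a1 was 0.578 and 0.626 in the mutant libraries and 0.541 and 0.629 in the control libraries. Slc12a3 over Slc12a1 was 0.280 and 0.333 in the mutant libraries and 0.274 and 0.427 in the control libraries. Kcnj1 over Slc12a1 was 0.418 and 0.433 in the mutant libraries and 0.265 and 0.378 in the control libraries, the one of these 3 ratios whose groups did not overlap. Its means were 0.425 ± 0.0107 in mutant and 0.321 ± 0.0796 in control libraries (SD, n = 2 each, exact two-sided permutation p = 0.333).

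**Figure D5:**
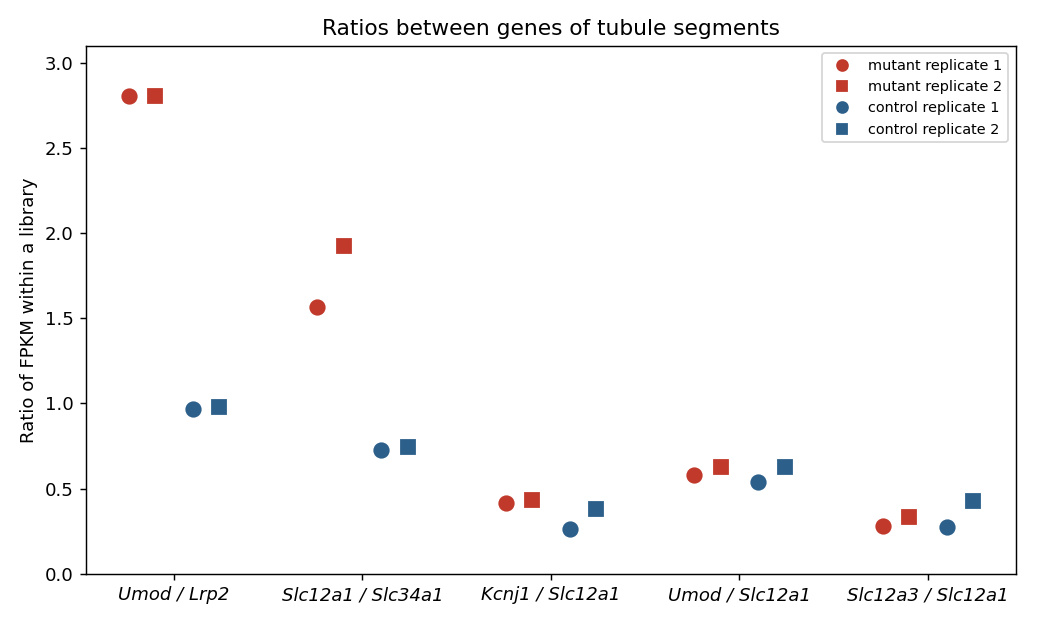
Ratios of FPKM within each library, with mutant libraries in red and control libraries in blue. The ratios of loop genes to proximal genes, Umod to Lrp2 and Slc12a1 to Slc34a1, are apart between the groups (2.80 and 2.81 against 0.965 and 0.980 for the first). Of those within the loop and distal tubule, Kcnj1 to Slc12a1 also does not overlap between the groups (0.418 and 0.433 against 0.265 and 0.378), and the others overlap.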

How the data were processed

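Poly(A)-selected RNA from whole kidneys was sequenced from 2 mutant and 2 control libraries, per the labels' protocols, with a kit for DNA libraries. Nothing in the sources used here gives strand use. The authors deposited 1 table of FPKM values per library, with an interval for each value. The submitters' processing notes name TopHat2 2.0.11, Bowtie 1.0.0, SAMtools 0.1.19, Cufflinks 2.1.1 and build mm9. The tables hold no counts, so no counting interval or depth could be given. The authors' deposited intervals are used for precision within a library, with a limit. The FPKM lay outside its own interval in 4.76% and 5.57% of rows in mutant replicates 1 and 2. The share was 4.88% in control replicate 2 and 0 in control replicate 1.

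FPKM was summed over rows with the same symbol, and names joined by commas were kept as they stand. Of 23852 names, 22761 were in all 4 tables, 99 with a row whose status was not OK were dropped, and 13287 at 1 FPKM or more in at least 2 libraries were tested. limma 3.58.1 in R 4.3.3 was fitted to log2(FPKM + 1) with trended empirical Bayes variances and no block, with Benjamini-Hochberg adjustment over all tested genes and a threshold of 0.05. Fold changes on this scale understate those of low genes. The fit was tested on simulated data. Locus starts were read as counting from 0, since adding 1 made 8552 of 15539 lengths equal the RefSeq lengths, against 450 otherwise.

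All given genes were described, and of the further lists the 4 most abundant of each, some of which are not reported here. The genes, lists and ratios were chosen with earlier results of these data known. Alternatives were other pseudocounts (0.1 and 5), filters, scalings, variance models and thresholds, the highest row per symbol, a block for the replicate number, and fits that drop 1 library at a time. Promoter sequences came from RefSeq (GRCm38.p6).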

Additional observations from a re-analysis of the deposited data

How the results depend on the processing

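None of the 25 loop and distal genes passed an adjusted p of 0.05 in limma under any of the 16 alternatives in which it was fitted, Egf and Casr being left out by the filter on a mean of 5 FPKM. At an unadjusted p under 0.05 between 0 and 4 were higher and 0 or 1 lower. The 4 came without control replicate 2, where 1169 of all 13287 genes were higher and 1124 lower, against 355 and 607 with all libraries. Their lowest adjusted p was 0.248, for Mal without control replicate 2. Their median log2 change lay between -0.02 and 0.07 with a library left out. Over all genes, 6 were higher and 15 lower. The counts were 35 lower without a filter, 7 lower without a variance trend, 29 lower with robust variances, 1 higher and 9 lower without genes listed at 0, and 13 higher and 66 lower at a threshold of 0.1. With a library left out they ran from 0 to 5 higher and from 0 to 9 lower, with none in either direction without either control library, 8 lower without mutant replicate 1 and 9 lower without mutant replicate 2. With the replicate number as a block, 3 were higher and 3 lower, and no loop or distal gene passed. Deviations of same-numbered libraries correlated at r = 0.146 across genes, with 2 pairs. The numbers also matched the sex pattern of Xist and Ddx3y in both groups. The labels give no shared litter or day, and the libraries were not treated as paired in the main fit. That fit therefore keeps any difference by sex in its spread. Leaving a library out also makes the sexes unequal between the groups. The cause of the differences between these fits was not tested.

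The sign was the same under every alternative in which the gene was fitted for 12 of the 25 genes. Irx2 was at -6.4e-06 with a pseudocount of 5. With median ratio scaling Irx1 was at -0.021, Irx2 at -0.016 and Emx1 at -0.015, and with quantile normalization Irx2 was at -0.0077 and Emx1 at -0.0085. With a library left out, log2 changes ran from -0.23 to 0.069 for Slc12a1, -0.14 to 0.070 for Umod, -0.33 to 0.13 for Casr, -0.016 to 0.21 for Sostdc1, -0.17 to 0.024 for Kcnj16, -0.11 to 0.15 for Wnk1, -0.090 to 0.013 for Wnk4, -0.018 to 0.019 for Irx1, -0.28 to 0.29 for Irx2, -0.068 to 0.11 for Irx3, -0.046 to 0.37 for Mecom, -0.023 to 0.094 for Tfap2b and -0.075 to 0.087 for Emx1.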

Other observations

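Markers of cell types outside the nephron and stroma were also read. Urothelial markers, led by Upk3a, summed to 134 and 84.6 FPKM in the mutant libraries and to 92.0 and 76.4 in the control libraries. The 2 erythroid markers found in all tables, Alas2 the more abundant, summed to 27.7 and 29.4 FPKM in the mutant libraries and to 17.5 and 21.4 in the control libraries. The 3 adrenal cortex markers found in all tables summed to 0.348 and 0.676 FPKM in the mutant and 0.692 and 1.23 in the control libraries.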
